A study of Mus musculus with 15 samples.

Results

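The 9 genes described here, *Cx3cr1*, *P2ry12*, *Csf1r*, *C1qa*, *C1qb*, *C1qc*, *Aif1*, *Trem2*, and *Tmem119*, are a listed set of microglia and brain macrophage markers, found by symbol among the 19475 genes measured by RNA-Seq in 15 mouse embryos. All 9 were in the table, and all 9 were above the level that a gene needed to be tested (a mean normalized read count of at least 5). The embryos were at E16.5 and comprised 5 wild-type (WT) embryos, 5 heterozygous *Tbr1* +/K228E embryos, and 5 homozygous *Tbr1* K228E/K228E embryos, with 3 females and 2 males in each genotype. *Tbr1* encodes a T-box transcription factor of cortical projection neurons, and the mutant allele is a germline knock-in that changes a lysine of its DNA-binding domain to glutamate. The mutation was therefore carried by all cells, on the C57BL/6J background, after the selection cassette had been removed by germline Cre. Each sample was RNA of the whole tissue of 1 embryo, named brain in the study's methods, forebrain in its results, and whole brain in the series description, and no cells were sorted. The depth was about 26.3 to 38.0 M reads per embryo, as estimated from the lowest values. The question was whether the level of microglial transcripts differed between the 3 genotypes.

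Microglia are the resident macrophages of the brain parenchyma. They descend from yolk sac progenitors that enter the neural tube before mid-gestation, and their survival depends on the receptor CSF1R and its ligands CSF1 and IL-34. A related population, the border-associated macrophages, lives in the meninges, choroid plexus, and perivascular spaces. It shares *Csf1r*, *Cx3cr1*, *Aif1*, and the C1q genes with microglia, whereas *P2ry12* and *Tmem119* are the members most often used to tell microglia apart in the adult brain. In the embryos studied here these 2 genes did not vary together (Pearson's r = -0.17 within genotypes). Which cells the *Tmem119* RNA came from was not tested. In RNA of whole tissue, fewer microglia and less RNA of a gene per microglial cell cannot be told apart.

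*Tbr1* itself was compared first. Its normalized read count was 3537 ± 1049 in WT embryos, 6269 ± 1532 in *Tbr1* +/K228E embryos, and 11366 ± 3160 in *Tbr1* K228E/K228E embryos (mean ± SD, n = 5 each). It was higher in *Tbr1* K228E/K228E mice relative to WT mice by 1.69 on the log2 scale (adjusted p = 0.00437, limma), and all 5 homozygous embryos were above all 5 WT embryos. The other 2 comparisons did not pass the test. *Tbr1* +/K228E mice had a log2 fold change of 0.85 relative to WT mice (adjusted p = 0.999), and *Tbr1* K228E/K228E mice one of 0.85 relative to *Tbr1* +/K228E mice (adjusted p = 0.614). In both the embryos overlapped, with 4738 in the lowest heterozygous embryo against 4871 in the highest WT embryo, and 7148 in the lowest homozygous embryo against 8543 in the highest heterozygous one.

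The 3 C1q genes lie side by side on chromosome 4 (GRCm38), in the order *C1qb*, *C1qc*, and *C1qa* on the minus strand, between 136880129 and 136898803, a span of 18.7 kb. They encode the chains of C1q, the recognition component of the classical complement pathway. The promoters of *C1qb* and *C1qc* are shown because these neighbours varied together across embryos. That of *Trem2* is shown as a member that varied less with them (Pearson's r = 0.32 and 0.30 within genotypes). *P2ry12* varied as little with them (r = 0.20 and 0.30), and its promoter, which is not shown, holds none of the letters marked below. Each sequence is from RefSeq (GRCm38.p6), runs 5′ to 3′ on the strand of the gene from 250 bases before to 50 bases after the annotated start, and has in capitals the letters GAGGAA on either strand (TTCCTC when reversed), a core to which PU.1, the myeloid ETS transcription factor, can bind. They are at chr4:136886151-136886450 (minus strand), chr4:136892865-136893164 (minus strand), and chr17:48346151-48346450 (plus strand).
C1qb: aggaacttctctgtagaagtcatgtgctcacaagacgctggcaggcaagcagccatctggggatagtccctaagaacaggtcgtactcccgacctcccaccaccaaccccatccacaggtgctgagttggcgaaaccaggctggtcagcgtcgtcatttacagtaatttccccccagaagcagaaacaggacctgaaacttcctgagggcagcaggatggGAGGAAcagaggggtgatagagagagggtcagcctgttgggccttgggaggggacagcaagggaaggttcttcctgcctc
C1qc: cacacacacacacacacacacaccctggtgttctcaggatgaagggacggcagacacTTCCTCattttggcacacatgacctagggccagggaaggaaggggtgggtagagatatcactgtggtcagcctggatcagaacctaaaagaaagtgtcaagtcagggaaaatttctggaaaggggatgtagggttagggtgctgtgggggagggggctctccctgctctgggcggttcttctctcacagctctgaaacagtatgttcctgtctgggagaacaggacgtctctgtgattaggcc
Trem2: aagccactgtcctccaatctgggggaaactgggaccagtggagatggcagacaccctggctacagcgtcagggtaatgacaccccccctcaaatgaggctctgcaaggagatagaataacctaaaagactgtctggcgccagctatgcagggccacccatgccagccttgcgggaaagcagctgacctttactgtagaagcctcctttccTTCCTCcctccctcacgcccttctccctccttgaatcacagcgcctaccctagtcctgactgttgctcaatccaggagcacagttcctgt
These letters were present in the promoters of 4 of the 6 members that RefSeq's table holds (*C1qb*, *C1qc*, *Aif1*, and *Trem2*, but not *P2ry12* or *Cx3cr1*), and in 28.3% of the 32851 promoters of the same length. The longer form GAGGAAG, which contains the first motif, was in 2 of the 6 (*C1qc* and *Trem2*) and in 13.6% of all promoters. The letters TGTGGT, the core of RUNX sites, were in 2 of the 6 (*C1qc* and *Cx3cr1*) and in 16.8% of all promoters, also counted on both strands. A match is a description of the window and not evidence of binding.

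The members spanned a wide range of levels. Per kb of the longest coding transcript, so that genes of different length can be compared, the mean normalized read count over the 15 embryos was 184 for *C1qb*, 140 for *C1qc*, 130 for *C1qa*, 95.6 for *Csf1r*, 54.5 for *Cx3cr1*, 48.5 for *Trem2*, 41.8 for *P2ry12*, 31.3 for *Aif1*, and 22.4 for *Tmem119*. *C1qb* was above *C1qc* in 14 of the 15 embryos, *C1qa* was above *Csf1r* in 15, and *Csf1r* was above *Cx3cr1* in 15, by more than the SD of their ratio over the embryos. The other neighbours in this order, *C1qc* and *C1qa* and each pair from *Cx3cr1* down to *Tmem119*, differed by less than that SD. On this scale, 54.7% of all genes were below *C1qb* and 30.3% were below *Tmem119*, so the members were in the middle of the range. Exons of *P2ry12* overlap those of *Med12l* on the opposite strand, those of *Csf1r* overlap *Hmgxb3*, and those of *Cx3cr1* overlap an antisense gene. The library kit did not mark strand, so that reads from the shared stretches cannot be told apart.

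In 3 embryos, genes of the meninges were far lower than in the others, which bears on macrophage genes and is therefore given first. The mean log2 level of 9 meningeal fibroblast genes, among them the collagens *Col1a1*, *Col1a2*, and *Col3a1*, was 5.05 in WT replicate 3, 5.74 in *Tbr1* K228E/K228E replicate 3, and 5.45 in *Tbr1* K228E/K228E replicate 4. It was between 7.87 and 10.3 in the other 12 embryos. This mean is called the meningeal score below, and the 3 embryos are shown apart because of the gap, which was found after the data were seen. WT embryos thus held 1, *Tbr1* +/K228E embryos none, and *Tbr1* K228E/K228E embryos 2 of the 3. Some genes of the border-associated macrophages showed the same gap, among them *Mrc1* and *Pf4*. *Mrc1*, which encodes the mannose receptor CD206, had a normalized read count of 33.3, 31.4, and 26.7 in these embryos in the order above, and between 195 and 860 in the other 12. *Pf4* was between 1.09 and 2.45 in the 3 and between 15.8 and 114 in the 12. The microglia members were not alike in these embryos. *P2ry12* was at 119, 96.6, and 84.0 in the 3 and between 67.0 and 122 in the 12, whereas *Tmem119* was at 26.8, 18.3, and 20.0 in the 3 and between 26.2 and 89.2 in the 12. *C1qa* was at 125, 64.6, and 86.4 in the 3 and between 96.0 and 200.4 in the 12. *Olfml3*, a microglia gene outside the members, was between 87.9 and 102 in the 3 and between 129 and 335 in the 12. The Hox genes of hindbrain and spinal cord were uneven too, with a mean log2 level of 11 Hox genes between 0 and 7.76, both found in heterozygous embryos, whereas *Emx1*, a transcription factor gene of the dorsal telencephalon, was between 260.0 and 773 in all embryos.

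The receptors *Cx3cr1* and *Csf1r* and the purinergic receptor *P2ry12* had overlapping levels in the 3 genotypes. *Cx3cr1*, the fractalkine receptor, had normalized read counts of 258, 189, 238, 296, and 317 in WT embryos, 204, 304, 230, 189, and 213 in *Tbr1* +/K228E embryos, and 327, 228.3, 176, 193, and 310 in *Tbr1* K228E/K228E embryos. The highest and the lowest embryo were both homozygous. *Csf1r*, the survival receptor, was at 540, 476, 453, 434, and 557 in WT embryos, 365, 645, 438, 351, and 375 in *Tbr1* +/K228E embryos, and 558, 367, 281, 294, and 610 in *Tbr1* K228E/K228E embryos. The lowest 2 values were those of the 2 homozygous embryos with a low meningeal score. *P2ry12*, the ADP receptor that guides microglial processes, was at 108, 75.0, 119, 112, and 122 in WT embryos, 73.3, 113, 67.0, 99.1, and 93.7 in *Tbr1* +/K228E embryos, and 118, 86.3, 96.6, 84.0, and 102 in *Tbr1* K228E/K228E embryos. Its difference between *Tbr1* +/K228E and WT embryos gave the smallest p of the members by the two-sided exact permutation test (exact p = 0.190, where 5 against 5 embryos allow 0.00794).

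*C1qa* and *C1qb* had their widest spread in *Tbr1* K228E/K228E embryos, whereas *C1qc* had a similar SD in both mutant genotypes (41.8 in heterozygous and 42.2 in homozygous embryos). *C1qa* was at 153, 138, 125, 125, and 160 in WT embryos, 149, 200.4, 148, 107, and 126 in *Tbr1* +/K228E embryos, and 169, 96.0, 64.6, 86.4, and 175 in *Tbr1* K228E/K228E embryos. Its SD was 16.0 in WT embryos, 34.9 in *Tbr1* +/K228E embryos, and 50.5 in *Tbr1* K228E/K228E embryos, and the difference between these SDs was not tested. The 3 lowest values were all homozygous, among them both homozygous embryos with a low meningeal score, whereas the other 2 homozygous embryos were above every WT embryo. *C1qb* ranged from 173 to 223 in WT embryos, from 171 to 271 in *Tbr1* +/K228E embryos, and from 102 to 285 in *Tbr1* K228E/K228E embryos. *C1qc* ranged from 147 to 199.5 in WT embryos, from 115 to 226 in *Tbr1* +/K228E embryos, and from 125 to 232 in *Tbr1* K228E/K228E embryos. For each of the 3 genes the groups overlapped.

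*Aif1* encodes the calcium-binding protein IBA1 and *Trem2* a lipid receptor that signals through the adaptor encoded by *Tyrobp*. *Aif1* was the one member whose mean was higher in both mutant genotypes than in WT embryos without passing the test, at 24.0 ± 5.96 in WT, 28.3 ± 6.67 in *Tbr1* +/K228E, and 29.9 ± 10.4 in *Tbr1* K228E/K228E embryos (normalized read count, mean ± SD, n = 5). *Trem2* was the steadiest member, at 52.0 ± 6.04, 54.3 ± 6.08, and 52.0 ± 12.0 in the same order. *Tmem119*, a membrane protein used as a microglia marker and also known from osteoblasts, was the most uneven one. It was at 89.2, 64.1, 26.8, 36.8, and 39.7 in WT embryos, 58.4, 68.4, 69.8, 26.2, and 31.6 in *Tbr1* +/K228E embryos, and 54.3, 66.7, 18.3, 20.0, and 82.3 in *Tbr1* K228E/K228E embryos. Each genotype held both high and low embryos, and the within-genotype coefficient of variation was 49.8% for *Tmem119* and 16.1% for *Trem2*.

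**Figure D1:**
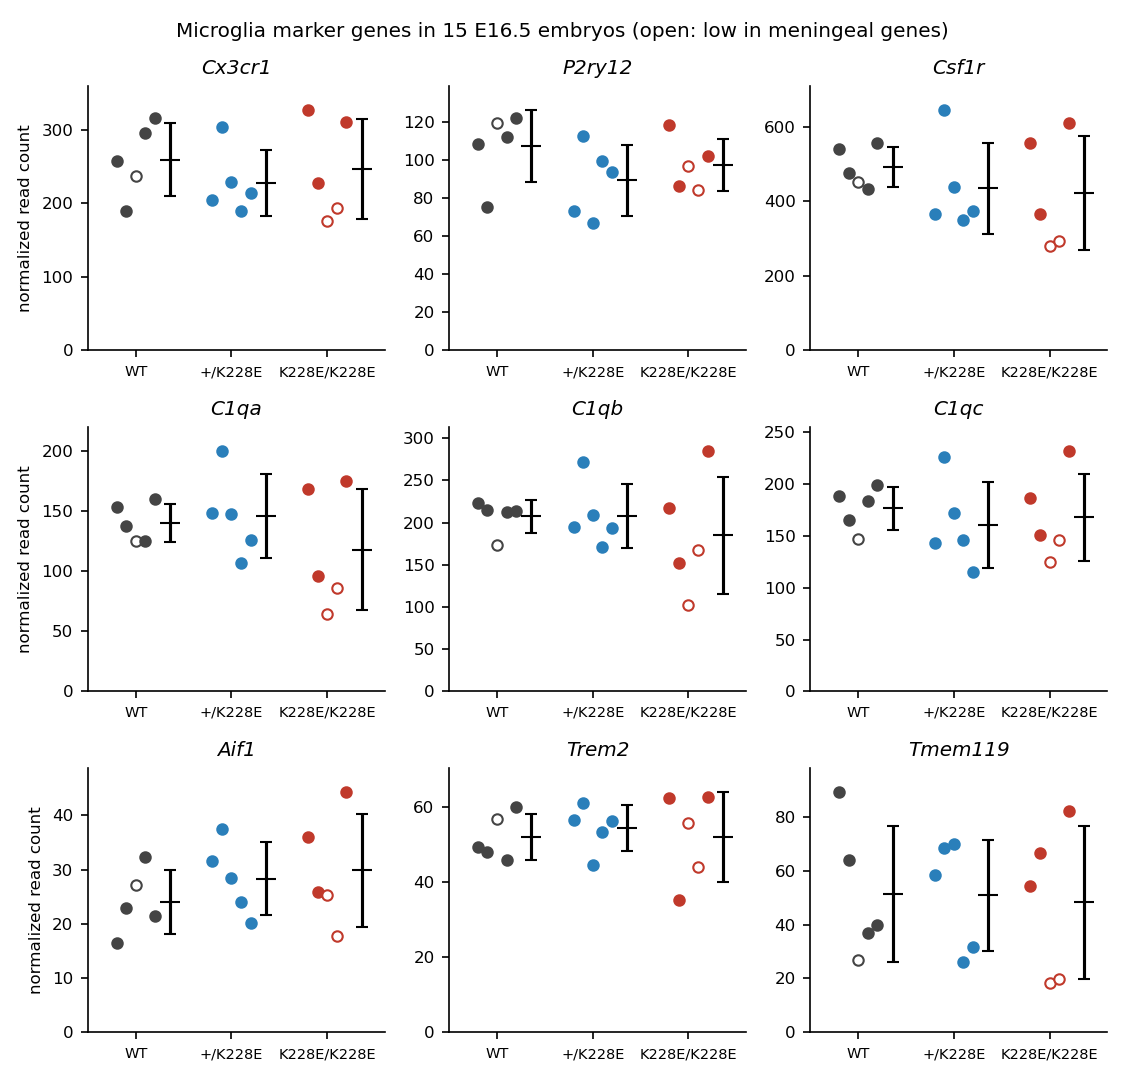
Normalized read count (y axis, linear and starting at 0) of the 9 members in each embryo by genotype (x axis), with the mean ± SD (n = 5) beside the points; open points are the 3 embryos low in meningeal genes. The genotypes overlap for every member, and the open points are the lowest 2 homozygous values for *Cx3cr1*, *Csf1r*, *C1qa*, *C1qc*, *Aif1*, and *Tmem119*.

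None of the 9 members passed the test in any comparison of genotypes (limma on log2(value + 1), Benjamini–Hochberg adjusted p under 0.05 over 16507 genes). In *Tbr1* +/K228E mice relative to WT mice, 0 of 9 members and 0 of all genes (0%) were called. In *Tbr1* K228E/K228E mice relative to WT mice, 0 of 9 members were called beside 21 of all genes (0.127%), and in *Tbr1* K228E/K228E mice relative to *Tbr1* +/K228E mice 0 of 9 beside 13 genes (0.0788%). A test for any difference among the 3 genotypes called 0 of 9 members and 16 genes (0.0969%). The unadjusted p was under 0.05 for 0 members in each of these, beside 295 of all genes (1.79%), 534 (3.23%), 544 (3.3%), and 427 (2.59%) in the same order. The groups did not overlap for 0 of 9 members in the 3 comparisons of pairs of genotypes, beside 43 (0.26%), 98 (0.594%), and 145 (0.878%) of all genes. These shares of all genes were so low that a count of 0 among 9 genes is no result about the members.

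The fold changes and their intervals say more. In *Tbr1* K228E/K228E mice relative to WT mice the log2 fold change, computed on values with 1 added, ran from -0.35 for *C1qa* (95% confidence interval -0.87 to 0.18) to 0.27 for *Aif1* (-0.27 to 0.81). With 1 embryo left out at a time, these moved between -0.51 and -0.16 and between 0.11 and 0.43. It was negative for 8 of 9 members, with a median of -0.13, against a median of -0.0023 over all genes. Without the 3 embryos low in meningeal genes it was positive for 6 of 9, with a median of 0.02, *C1qa* moved to -0.02 (-0.52 to 0.49), and *Aif1* moved to 0.59 (-0.02 to 1.21, unadjusted p = 0.0577, adjusted p = 1.00, limma). With the meningeal score as a covariate in all 15 embryos it was again negative for 7 of 9, with a median of -0.02, *C1qa* at -0.21, and *Csf1r* at -0.18, and no member was called. In *Tbr1* +/K228E mice relative to WT mice the log2 fold change ran from -0.27 for *P2ry12* (-0.63 to 0.09) to 0.23 for *Aif1* (-0.39 to -0.17 and 0.11 to 0.34 with 1 embryo left out), with 4 positive, 5 negative, and a median of -0.009 (all genes -0.0021). Without the 3 embryos it was positive for 2 of 9, with a median of -0.19. In *Tbr1* K228E/K228E mice relative to *Tbr1* +/K228E mice it ran from -0.38 for *C1qa* to 0.14 for *P2ry12* (-0.55 to -0.19 and 0.05 to 0.23 with 1 embryo left out), with 4 positive and a median of -0.08 (all genes 0.0004). Without the 3 embryos this median turned to 0.24, with 7 of 9 positive and *C1qa* at -0.012, and no member was called in either fit. All 27 intervals covered 0. Their half-width was between 0.36 for *Trem2* and 0.96 for *Tmem119* on the log2 scale, so that the data bound changes of *Tmem119* least.

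**Figure D2:**
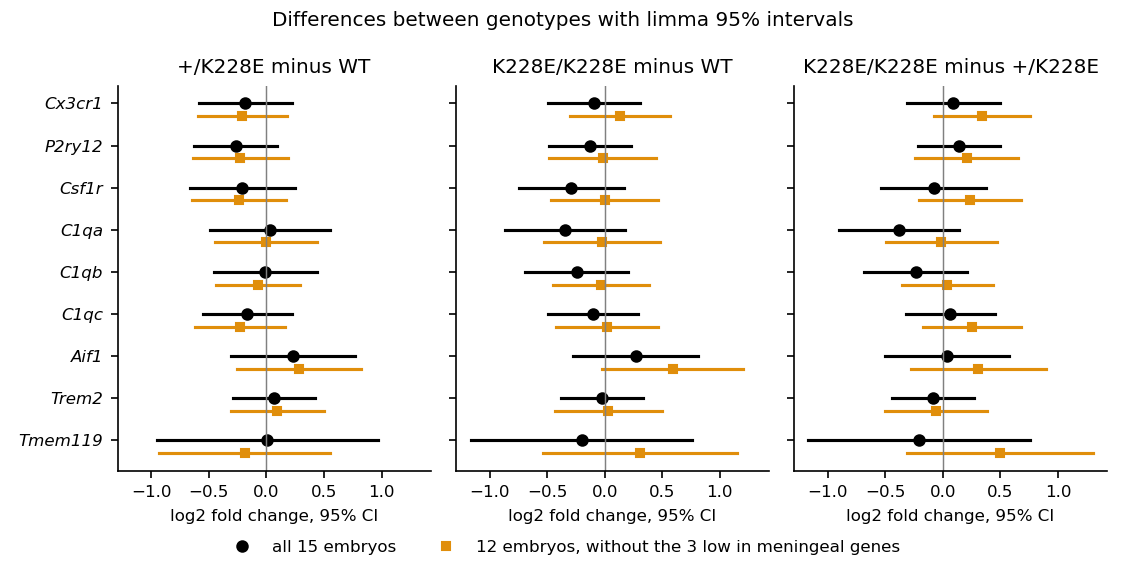
Log2 fold change (x axis) of each member (y axis) in the 3 comparisons of genotypes, with the 95% confidence interval from limma, in all 15 embryos (black circles) and in the 12 embryos left without the 3 low in meningeal genes (orange squares). Every black interval covers 0, and between homozygous and WT embryos *C1qa* is at -0.35 in black and at -0.02 in orange.

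The summed normalized read count of the 9 members was 1511 ± 142 in WT embryos, 1400 ± 308 in *Tbr1* +/K228E embryos, and 1367 ± 424 in *Tbr1* K228E/K228E embryos (mean ± SD, n = 5). The lowest sum was 945, in homozygous replicate 3, and the highest was 1927, in heterozygous replicate 2, a 2.04-fold range, and the genotypes overlapped. The sum over the 9 listed border-associated macrophage genes ran from 418 to 3925, a 9.40-fold range, and its lowest 3 values were those of the embryos low in meningeal genes.

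Sex was balanced over the genotypes. In males relative to females, 0 of 9 members were called, beside 13 of all genes (0.0788%). The widest difference was that of *Tmem119*, with a normalized read count of 57.3 ± 22.1 in 9 females and 39.4 ± 22.2 in 6 males (mean ± SD), or -0.54 on the log2 scale, and the lowest adjusted p among the members was 0.571 (limma). The 9 meningeal fibroblast genes were also lower in males in 9 of 9, with a median of -0.44 on the log2 scale and 0 called, and their part in the difference of *Tmem119* was not tested. Whether the difference between *Tbr1* K228E/K228E and WT mice depended on sex was tested by an interaction term, which called 0 of 9 members and 0 of all genes (0%), with 1066 genes under an unadjusted p of 0.05.

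How the members varied with the meningeal score was examined next, in a fit of genotype and score over the 15 embryos that was added after the data were seen. *Tmem119* was higher with the score by 0.39 log2 units per unit of the score (95% confidence interval 0.27 to 0.51, adjusted p = 0.000261, limma). *C1qa* was higher by 0.17 (adjusted p = 0.0311), *C1qb* by 0.14 (adjusted p = 0.0385), and *Csf1r* by 0.14 (adjusted p = 0.0434). These 4 of 9 were called, beside 1077 of all genes that were higher with the score (6.52%), and no member was called lower. The slopes that did not pass were 0.11 for *C1qc*, 0.10 for *Cx3cr1*, 0.08 for *Aif1*, 0.01 for *Trem2*, and -0.01 for *P2ry12*. The last 2 had intervals of -0.09 to 0.10 and -0.11 to 0.08. In the 12 embryos without the 3 at the low end, 1 member was called, *Tmem119*, beside 772 of all genes that were higher with the score (4.68%). Its slope was 0.63 (0.39 to 0.86, adjusted p = 0.00439, limma). *P2ry12* and *Trem2* had slopes of -0.09 (-0.34 to 0.15) and 0.08 (-0.16 to 0.33) in these embryos, and *C1qc* one of 0.21. The slopes of *C1qa*, *C1qb*, and *Csf1r* were then 0.30, 0.24, and 0.26, with adjusted p of 0.0710, 0.0995, and 0.118. Quantile normalization also ended these 3 calls, with slopes of 0.11, 0.093, and 0.12 (adjusted p = 0.221, 0.217, and 0.107), as did the replicate number as a block (0.13, 0.13, and 0.12, adjusted p = 0.579, 0.468, and 0.537). *Tmem119* was called with any single embryo left out, with slopes between 0.36 and 0.51, whereas the calls of the other 3 depended on single embryos. That of *C1qa* was lost without heterozygous replicate 4 or homozygous replicate 1, 3, 4, or 5, with an adjusted p of up to 0.117. That of *C1qb* was lost without WT replicate 1 or 5, heterozygous replicate 3, 4, or 5, or homozygous replicate 1, 3, or 5 (adjusted p up to 0.143), and that of *Csf1r* without any of these 8 embryos or homozygous replicate 4 (up to 0.149).

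**Figure D3:**
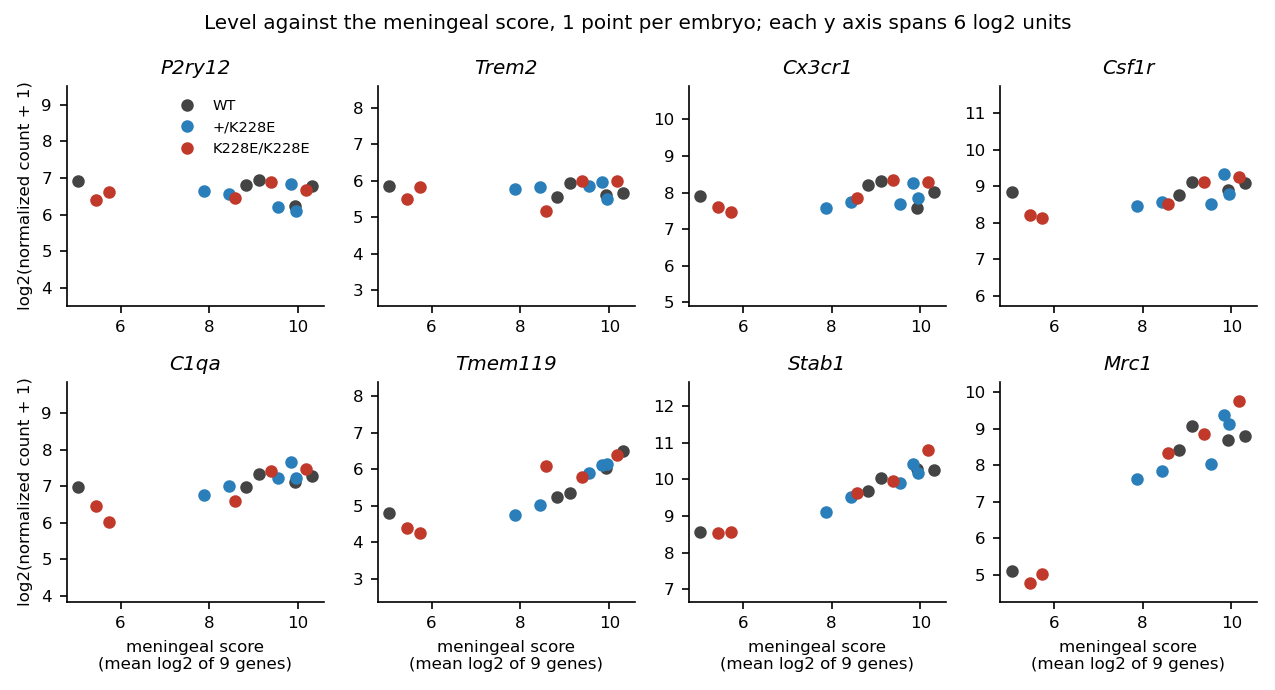
Level as log2(normalized read count + 1) (y axis, 6 log2 units in each panel) against the meningeal score (x axis, mean log2 level of 9 meningeal fibroblast genes) for 6 members and 2 border-associated macrophage genes, with 1 point per embryo coloured by genotype. *P2ry12* and *Trem2* are flat (slopes -0.01 and 0.01), *Tmem119* is higher with the score (0.39), and *Mrc1* is between 26.7 and 33.3 in the 3 embryos at the left.

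The listed genes of other cell types give the scale of these slopes. Of 8 border-associated macrophage genes that were tested, 7 were called higher with the score, with a median slope of 0.98 over the list (all genes -0.0031). *Lyve1*, the hyaluronan receptor, had a slope of 1.37, *Pf4* 1.08, *F13a1* 1.06, and *Mrc1* 0.90. In the 12 embryos without the 3 at the low end, 4 of the 8 were called, with a median of 0.62, the size of the slope of *Tmem119* in the same embryos. There *Lyve1* had a slope of 0.71 and was not called (adjusted p = 0.103, limma). *Pf4*, *F13a1*, and *Mrc1* had slopes of 0.81, 0.63, and 0.62 and were called. *Cd163* was at 0 in WT replicate 3 and in *Tbr1* K228E/K228E replicate 3 and at 2.15 in *Tbr1* K228E/K228E replicate 4, against 16.0 to 104 in the other 12 embryos. The median slope over the 9 microglia members was 0.11. Of 10 other microglia genes that were tested, 1 was called, *Olfml3*, with a slope of 0.33 (adjusted p = 5.79e-05), and the median was 0.08. In the 12 embryos its slope was 0.62 (adjusted p = 9.75e-05). *Fcrls*, an Fc receptor-like gene of microglia, had a slope of 0.09 and was not called. *Siglech* had the lowest slope of that list, -0.20 (adjusted p = 0.163), with 62.4, 56.6, and 41.2 in the 3 embryos and 12.0 to 37.1 in the others. In the 12 embryos its slope was 0.02 (95% confidence interval -0.41 to 0.44). Of 19 genes shared by myeloid cells, 5 were called higher, among them the Fc receptor genes *Fcer1g* (0.30) and *Fcgr3* (0.25), and the transcription factor *Runx1* (0.21). In the 12 embryos 0 of these 19 were called (limma), with slopes of 0.35 for *Fcer1g* (adjusted p = 0.0560), 0.25 for *Fcgr3* (0.256), and 0.30 for *Runx1* (0.299) that were about as large or larger. *Spi1*, which encodes PU.1, had a slope of 0.12 and *Irf8* of 0.07, and neither was called. In the 12 embryos their slopes were -0.07 (95% confidence interval -0.36 to 0.23) and 0.12 (-0.21 to 0.46). Positive slopes were also found outside macrophage genes. Of 7 choroid plexus genes, 5 were called higher, with a median of 0.70 and a slope of 1.21 for *Ttr*, the transthyretin gene, and in the 12 embryos 4 were called, with a median of 0.80. Of 8 erythroid genes, 5 were called higher, with a median of 0.24, and in the 12 embryos 5 were called, with a median of 0.53. Of 9 endothelial genes, 8 were called higher, with a median of 0.16, and in the 12 embryos 7 were called, with a median of 0.23. Of 9 cell cycle genes 0 were called in the 15 embryos (limma, 0 at an unadjusted p under 0.05), with a median of 0.01, and in the 12 embryos 4 were called, with a median of 0.32. The part that border-associated macrophages, other meningeal cells, choroid plexus, blood, or blood vessels had in the slopes of the microglia members was not tested.

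**Figure D4:**
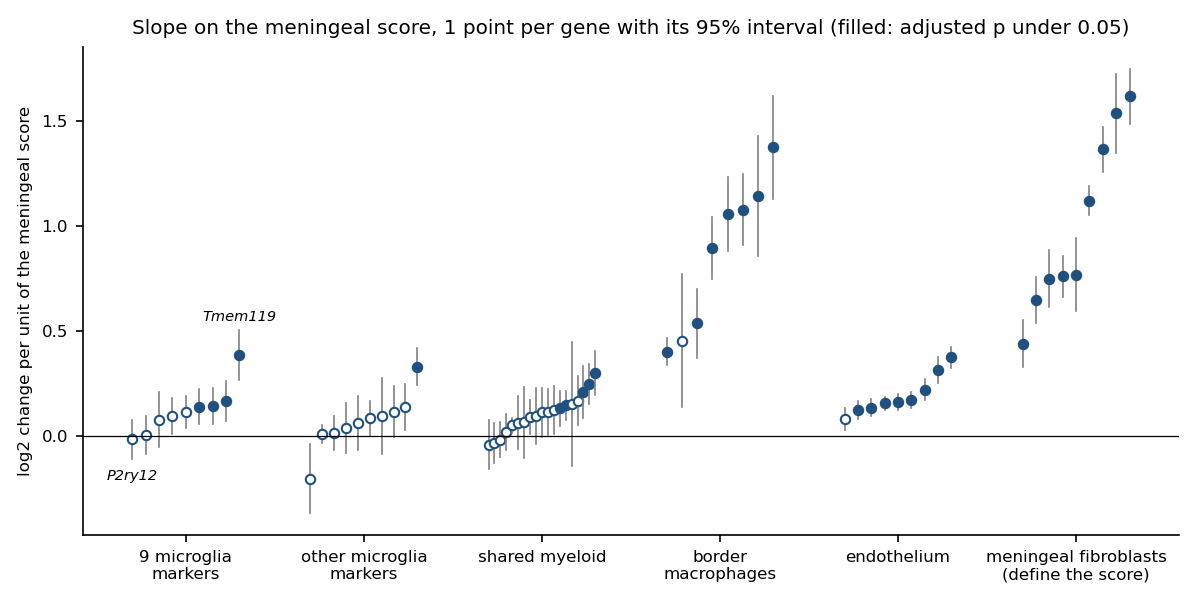
Slope on the meningeal score in log2 units per unit of the score (y axis) for each gene of 6 lists (x axis), with the 95% confidence interval from limma; filled points passed an adjusted p of 0.05. The 9 microglia members lie between -0.01 (*P2ry12*) and 0.39 (*Tmem119*), and the border-associated macrophage genes between 0.40 and 1.37.

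The ligands and partners of the members were compared between genotypes from fixed lists. Across 17 further lists, 161 genes other than the members were tested, and 0 were called in any comparison of genotypes (limma), with 5 at an unadjusted p under 0.05 in *Tbr1* +/K228E mice and 3 in *Tbr1* K228E/K228E mice relative to WT mice. Of all genes, 0% and 0.127% were called in the same order, and 1.79% and 3.23% were at that unadjusted p. *Csf1* and *Il34*, which encode the ligands of CSF1R, had log2 fold changes of -0.35 and -0.16 in *Tbr1* K228E/K228E mice relative to WT mice and did not pass the test (adjusted p = 1.00 for both). Mean normalized read counts per kb of *Csf1* were 81.4 in WT, 72.8 in *Tbr1* +/K228E, and 65.3 in *Tbr1* K228E/K228E embryos. Those of *Il34* were 34.0, 40.9, and 31.7 in the same order. Both genes were called higher with the meningeal score, with slopes of 0.19 and 0.35. In the 12 embryos without the 3 low in meningeal genes the slopes were 0.51 and 0.48 (adjusted p = 1.87e-05 and 0.00827, limma). *Cx3cl1*, the neuronal ligand of the *Cx3cr1* product, was between 822 and 1650 in all embryos, with a log2 fold change of -0.06. *Tyrobp* had a log2 fold change of 0.15, and *Tgfb1*, a growth factor on which microglial identity depends, one of -0.19. Among 11 complement genes beyond C1q that were tested, 3 had an unadjusted p under 0.05 in *Tbr1* +/K228E mice relative to WT mice, not all in the same direction, and none was called (adjusted p = 0.999 for each, limma), beside 295 of all genes (1.79%) at that p. In *Tbr1* K228E/K228E mice 1 of the 11 was at that p relative to WT mice, *C1s1* (log2 fold change 0.95, unadjusted p = 0.0435, limma), beside 534 of all genes (3.23%). Relative to *Tbr1* +/K228E mice 1 was at that p, *C4b* (log2 fold change -0.38, unadjusted p = 0.00610), beside 544 of all genes (3.3%), and neither *C1s1* nor *C4b* was called. The 3 genes in heterozygous relative to WT embryos had log2 fold changes of 0.77 for *C2* (unadjusted p = 0.00554), 0.30 for *C4b* (0.0242), and -0.58 for *C3* (0.0487), with normalized read counts of *C3* from 41.1 to 85.3 in WT embryos and from 18.3 to 55.4 in *Tbr1* +/K228E embryos. For *C2* the normalized read counts were 39.6, 22.8, 20.4, 47.9, and 35.4 in WT embryos and 47.3, 52.5, 47.8, 52.8, and 78.4 in *Tbr1* +/K228E embryos, which overlapped. Of 9 interferon and MHC genes that were tested, 2 had an unadjusted p under 0.05 (limma) in *Tbr1* K228E/K228E mice relative to WT mice. All 9 were lower there, with a median log2 fold change of -0.27, and 0 were called. Without the 3 embryos low in meningeal genes, 3 of the 9 were higher, with a median of -0.17. Of 8 monocyte and neutrophil genes in the table, *Lyz2*, a lysozyme gene that macrophages also express, was the most abundant, between 37.3 and 140 normalized read counts in the 15 embryos. Its mean per kb was 62.6, above that of *Cx3cr1*, *Trem2*, *P2ry12*, *Aif1*, and *Tmem119*. *S100a9* was between 2.26 and 50.7, with a mean per kb of 24.6, and *Ccr2* and *Elane* were between 6.59 and 17.2 and between 0 and 4.25. *Lyz2* was called higher with the meningeal score in the 15 embryos (slope 0.22, adjusted p = 0.00138, limma) and not in the 12 (0.21, adjusted p = 0.223), and its part in the results for the members was not tested.

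The 8 border-associated macrophage genes that were tested were all lower in *Tbr1* K228E/K228E mice relative to WT mice (median log2 fold change -0.67) and all higher in *Tbr1* +/K228E mice relative to WT mice (median 0.38), with 0 called in either. The 2 comparisons share the WT embryos. Without the 3 embryos low in meningeal genes the medians were 0.15 and -0.40, so that both directions turned.

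Some members varied together within genotypes. Over the deviations from genotype means in the 15 embryos, which share library and tissue composition, Pearson's r was 0.95 for *Csf1r* and *C1qa*, 0.93 for *C1qa* and *C1qb*, and 0.85 for *C1qb* and *C1qc*. It was -0.17 for *P2ry12* and *Tmem119* and -0.07 for *Trem2* and *Tmem119*. The median over the 36 pairs was 0.61. The 8 tested genes outside the members whose deviations were most like the mean standardized profile of the 9 were *Erap1* (r = 0.92), *Unc93b1* (0.92), *Fermt3* (0.91), *Esm1* (0.88), *Cdc20b* (0.86), *Cd86* (0.86), *Aoah* (0.86), and *Adgre1* (0.86), over the same 15 embryos. With the 2 embryos farthest from the median of the profile left out, r for these was between 0.77 and 0.89. *Adgre1* encodes the macrophage antigen F4/80 and is the only one of the 8 in the marker lists. *Cd86* encodes a costimulatory molecule of antigen-presenting cells, and the cell types that express the others were not examined. The 8 were picked for the highest r of all tested genes, so that high values follow from the choice.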

How the data were processed

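RNA of 15 mouse embryos at E16.5 was sequenced as 101-bp paired ends from TruSeq v2 libraries. The authors estimated transcript abundance with Salmon 0.11.2 (GRCm38, GC bias correction), summed it to genes with tximport in R 3.5.3, and divided it by DESeq2 1.22.2 size factors, so that the deposited values are a normalized signal per gene and not whole reads (1.84% of values above 0 were whole within 0.01), and no count model was fitted. The values summed to 30.5 to 31.8 M per embryo, and the commonest low value gave an approximate depth of 26.3 to 38.0 M reads. Of 19475 identifiers, 19452 matched a symbol.

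In R 4.3.3, limma 3.58.1 (lmFit, eBayes with a trend) was fitted to log2(value + 1) over all 15 embryos for 16507 genes with a mean of at least 5, with Benjamini–Hochberg adjustment over all of them and a threshold of 0.05. For single members, 5 embryos were also set against 5 in an exact permutation test (two-sided). The procedure was tested on simulated data. Genotype, replicate number, and sex came from the labels. The 18 marker lists, that of the 9 members included (182 entries, 180 in the table), were chosen with earlier results of these data known. Named genes were all members, listed genes called between genotypes or among the most abundant of a list, and the 8 genes most like the members; the other listed genes that are named were chosen after their values were seen. Alternatives were pseudocounts of 0.1 and 10, other filters and scalings, sex, Hox genes, or the meningeal score as covariates, robust moderation, a replicate block, and leaving out embryos. The labels do not say whether embryos shared litters, and p-values measure the spread between these embryos. Some listed genes are not reported here.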

Additional observations from a re-analysis of the deposited data

Results flagged for a closer look

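Of the 27 groups formed by 9 members and 3 genotypes, 1 held an embryo far from the rest, and chance flags about 1 in 20 groups. *C1qb* in WT replicate 3 had a normalized read count of 173, and its gap to the nearest WT embryo was 0.788 of the range of the 5 WT embryos. This embryo is 1 of the 3 that were low in meningeal genes, and the part of that in the value was not tested.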

How the results depend on the processing

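No member was called between genotypes under any alternative that was run, fits with 1 embryo left out included, and the adjusted p of the members was between 0.933 and 1 (limma) over the other alternatives. Since few of all genes were called, this says little about stability. Without the 3 embryos low in meningeal genes, the genes called fell to 7 in homozygous relative to WT mice, to 0 relative to *Tbr1* +/K228E mice, and to 0 for any genotype difference, whereas the sex interaction called 4, and 1 member was called with the meningeal score. That fit has fewer embryos, and the cause was not tested. With the 2 compared genotypes alone, 12 genes were called in homozygous relative to WT mice. The labels do not say whether the replicate numbers pair the embryos of the genotypes. Some embryos correlated best with their own number and others did not (r of same-numbered deviations from -0.23 to 0.51). These values cannot exclude a partial pairing. A fit with the replicate number as a block called 2 genes between the mutant genotypes, 7 for any genotype difference, and 530 with the score, 1 of them a member. Quantile normalization also left 1 member called with the score. The block, the quantile scaling, and the loss of the 3 embryos each ended the calls of *Csf1r*, *C1qa*, and *C1qb*, sex as a covariate that of *Csf1r* (slope 0.14 as before, adjusted p = 0.0573), and none of them ended that of *Tmem119*. With the Hox score as a covariate *C1qc* was called too (0.13, adjusted p = 0.0439, limma). Scaling alternatives moved the median of all genes by less than 0.01.

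The following directions turned, none of them for a called value. Relative to WT mice, the log2 fold change in *Tbr1* +/K228E mice became -0.049 for *C1qa* and -0.18 for *Tmem119* with the meningeal score as a covariate, -0.0070 and -0.19 without the 3 embryos, and 0.0040 for *C1qb* with the Hox score as a covariate. In *Tbr1* K228E/K228E mice it became 0.13 for *Cx3cr1*, 0.00093 for *Csf1r*, 0.023 for *C1qc*, 0.033 for *Trem2*, and 0.31 for *Tmem119* without the 3 embryos, 0.10 for *Tmem119* with the meningeal score, and 0.043 for *Trem2* after quantile normalization. Between the mutant genotypes it became 0.24 for *Csf1r*, 0.039 for *C1qb*, and 0.49 for *Tmem119* without the 3 embryos, and 0.10 for *Csf1r* and 0.28 for *Tmem119* with the meningeal score. The slope on the score became 0.00039 for *P2ry12* with the Hox score, and -0.070 and -0.030 for *Trem2* after quantile normalization and with the block.

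With 1 embryo left out at a time, the genes called were 12 to 21 in homozygous relative to WT mice, 6 to 8 relative to *Tbr1* +/K228E mice, and 10 to 24 between the sexes, and the members called with the score were 1 to 5. The log2 fold change in heterozygous relative to WT mice was -0.089 to 0.14 for *C1qa*, -0.11 to 0.058 for *C1qb*, and -0.19 to 0.24 for *Tmem119*. In homozygous relative to WT mice it was -0.20 to 0.018 for *Cx3cr1*, -0.10 to 0.10 for *Trem2*, and -0.45 to 0.079 for *Tmem119*. Between the mutant genotypes it was -0.021 to 0.20 for *Cx3cr1*, -0.23 to 0.073 for *Csf1r*, -0.059 to 0.20 for *C1qc*, -0.12 to 0.20 for *Aif1*, -0.16 to 0.041 for *Trem2*, and -0.46 to 0.071 for *Tmem119*. The slope on the score was -0.036 to 0.0089 for *P2ry12* and -0.020 to 0.035 for *Trem2*. How depth bears on the precision of the members was not tested.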
